A study of Mus musculus with 12 samples.

Results

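The genes described here are the ligands of the EGF family (Egf, Tgfa, Areg, Ereg, Hbegf and Btc) and the ERBB receptors (Egfr, Erbb2, Erbb3 and Erbb4) in mouse pancreatic cells. Their members on the array were all probe sets to which the platform table gives one of these 10 symbols and no other. This rule found 9 of the 10 genes, with 20 probe sets, among 18193 genes in the series. Areg had no probe set under the rule and was not analysed here.

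The series asked how close acinar cells that had been converted by a pulse of YAP come to native pancreatic duct progenitors. It holds 12 Affymetrix mouse gene expression arrays, with 4 biological replicas named A to D in each of 3 groups. yDucts were organoids grown from exocrine acinar cells of R26-rtTA; tetO-YAP S127A adult mice, in which doxycycline switches on a constitutively active YAP, and they were expanded after the doxycycline had been withdrawn. Ducts were organoids grown from native duct fragments of the pancreas. Acini were freshly isolated pancreatic acini. The labels do not state the genotype of the mice behind the Ducts and Acini arrays. They call the replicas biological, without saying whether these were separate animals or cultures. The tests rest only on the spread of arrays within groups. The estimate for a probe set is shared by the 3 groups and drawn in part from all tested probe sets. yDucts and Ducts are thus compared with a spread that also includes the Acini arrays. The rtTA stands under the ubiquitous Rosa26 locus, so the transgene pair is not limited to acinar cells.

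Both organoid groups were kept in Matrigel in a medium with murine EGF, R-Spondin1, nicotinamide, the human factors Noggin and FGF10, gastrin, N-acetylcysteine and B27. An EGF receptor ligand was thus supplied to yDucts and Ducts. Cell state, culture and added EGF all differ together between the organoids and the Acini, and these cannot be told apart when either organoid group is set against Acini.

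EGF family ligands are made as membrane proteins, are cut free by ADAM proteases, and bind ERBB receptors, which pair up and phosphorylate each other. The paired receptors recruit adaptors that feed the RAS-ERK and PI3K-AKT pathways. Egfr binds EGF, TGF-alpha, amphiregulin, epiregulin, HB-EGF and betacellulin, Erbb4 binds neuregulins and some of the EGF-like ligands, Erbb3 binds neuregulins but has little kinase activity of its own, and Erbb2 binds no known ligand and acts as the preferred partner of the others. In the pancreas, this signalling is known for its part in the change of acinar cells to duct-like cells.

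Promoter windows are shown for the gene that was lower in the organoids (Egf), for the one ligand that differed between the organoid groups (Btc), and for the receptors Egfr and Erbb2, so that their base content can be set beside their levels. Each window runs 5′ to 3′ from 250 bases before to 50 bases after the annotated start (RefSeq, GRCm38.p6). Of the 9 members, 6 had a window in the RefSeq table. Capitals mark GGAATG, the core motif of the TEAD factors through which YAP binds DNA. The AP-1 motif TGANTCA, bound by FOS and JUN proteins, was also searched. Both strands were searched, and no match of one motif overlapped a match of the other.
Egf, chr3:129755273-129755572, minus strand: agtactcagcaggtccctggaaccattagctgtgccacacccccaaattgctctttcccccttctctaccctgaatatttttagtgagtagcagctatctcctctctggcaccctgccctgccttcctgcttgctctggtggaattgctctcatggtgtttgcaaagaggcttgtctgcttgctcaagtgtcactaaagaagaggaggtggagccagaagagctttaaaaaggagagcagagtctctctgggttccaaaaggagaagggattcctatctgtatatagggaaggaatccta
Btc, chr5:91402945-91403244, minus strand: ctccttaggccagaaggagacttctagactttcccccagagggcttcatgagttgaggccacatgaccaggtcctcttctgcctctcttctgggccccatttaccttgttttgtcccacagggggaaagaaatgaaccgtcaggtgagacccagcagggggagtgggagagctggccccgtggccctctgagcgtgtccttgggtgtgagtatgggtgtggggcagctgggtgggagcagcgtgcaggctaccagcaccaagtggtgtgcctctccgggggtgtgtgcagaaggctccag
Egfr, chr11:16751953-16752252, plus strand: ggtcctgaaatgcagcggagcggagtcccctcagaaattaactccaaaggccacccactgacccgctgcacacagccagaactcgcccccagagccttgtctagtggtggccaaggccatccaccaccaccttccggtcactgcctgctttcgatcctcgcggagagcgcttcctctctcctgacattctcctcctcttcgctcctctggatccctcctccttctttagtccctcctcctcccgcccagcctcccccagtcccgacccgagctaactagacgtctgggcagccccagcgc
Erbb2, chr11:98412234-98412533, plus strand: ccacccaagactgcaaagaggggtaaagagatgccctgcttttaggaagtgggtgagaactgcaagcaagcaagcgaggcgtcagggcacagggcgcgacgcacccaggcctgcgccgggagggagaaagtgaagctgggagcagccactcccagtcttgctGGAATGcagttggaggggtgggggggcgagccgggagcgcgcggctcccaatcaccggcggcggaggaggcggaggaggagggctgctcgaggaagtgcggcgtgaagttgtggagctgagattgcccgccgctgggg
The Egf window belongs to the more upstream of its 2 annotated starts. GGAATG was found in the Erbb2 window alone among the members with a window, 88 bases before the start (first base at position -88). It occurred in 14.7% of the 32851 windows of the same length in the table. No member's window held TGANTCA, which occurred in 7.81% of all windows. The printed windows held 0 CG dinucleotides in Egf, 5 in Btc, 15 in Egfr and 21 in Erbb2, beside a median of 7 over all windows. The window of the other Egf start held 17, so the count for Egf depends on which start is taken. These matches are descriptions of letters, and absence of a match says nothing about binding.

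Values are log2 signals from robust multi-array averaging (RMA), so a difference of 1 is a doubling. Levels of different probe sets cannot be set against each other, and all comparisons below are of 1 probe set between groups. Probe sets whose value exceeded the array's own 30th percentile in 4 or more arrays were tested, which were 33436 in all and 18 of the 20 of the members. The test was limma's moderated test over all 12 arrays, with Benjamini-Hochberg adjustment over all tested probe sets, and a probe set was called at an adjusted p under 0.05. Each gene is represented by its brightest probe set, and its other probe sets are described beside it.

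The arrays differed between groups in ways that touch every comparison with Acini. Their 30th percentile lay at 3.18 to 3.21 in yDucts, 3.19 to 3.23 in Ducts and 3.64 to 3.79 in Acini. The difference between the 3′ and 5′ probe sets of Gapdh, which grows as RNA is shortened, was -0.17 to -0.12 in yDucts, -0.07 to 0.02 in Ducts and 1.29 to 1.91 in Acini. Correlations between arrays of a group ran from 0.9855 to 0.9961 in yDucts, 0.9402 to 0.9934 in Ducts and 0.9321 to 0.9573 in Acini, and Ducts A and B stood apart from Ducts C and D. All 7 measured acinar markers were lower in both organoid groups than in Acini, with a mean over the list of 3.67 to 3.91 in yDucts, 3.43 to 3.92 in Ducts and 12.64 to 12.77 in Acini. Of the 6 duct markers tested, 2 were higher and 1 lower in yDucts than in Acini, with the same counts for Ducts. The 2 were the duct keratins Krt7 and Krt19 in each comparison, while Sox9, a regulator of duct cells, and Cftr did not pass in either. The marker called lower was not the same gene in the 2 comparisons. It was Muc1 in yDucts (log2 difference -0.67, limma adjusted p = 0.00729) and Onecut1 in Ducts (-1.07, adjusted p = 0.00382).

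Against Acini, Ereg, Btc, Erbb2 and Erbb3 were called higher in the organoids by brightest probe set, and Egf was called lower. Probe sets of Egfr and Tgfa were called in both directions, and the direction of Hbegf depended on the scaling. By brightest probe set, 7 of the 8 tested genes (Tgfa, Ereg, Hbegf, Btc, Egfr, Erbb2 and Erbb3) were called higher and 1 was called lower in yDucts, beside 43.4% of 14990 genes called higher and 32.3% called lower. The same 7 and 1 were called in Ducts, beside 42.4% called higher and 32.9% called lower. Brightness was the mean over all arrays, most of which were organoid arrays, so the rule leans towards probe sets that read high in organoids. Egfr and Tgfa also have probe sets called lower, among them the brightest in Acini. Their place among the 7 thus depends on which probe set stands for the gene, and the choice was not independent of the direction. The direction of Hbegf turned in both comparisons under cyclic loess and in yDucts under quantile normalization, as given below. Over all 18 tested probe sets, 10 were higher, 5 lower and 3 not called in yDucts, beside 39.7% called higher and 31.6% called lower among all probe sets. In Ducts the counts were again 10, 5 and 3, beside 40% called higher and 31.2% called lower. The median difference over the tested member probe sets was 0.86 in yDucts and 0.97 in Ducts, against 0.13 and 0.16 over all tested probe sets. Both comparisons share the Acini arrays, so they are not independent of each other.

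**Figure D1:**
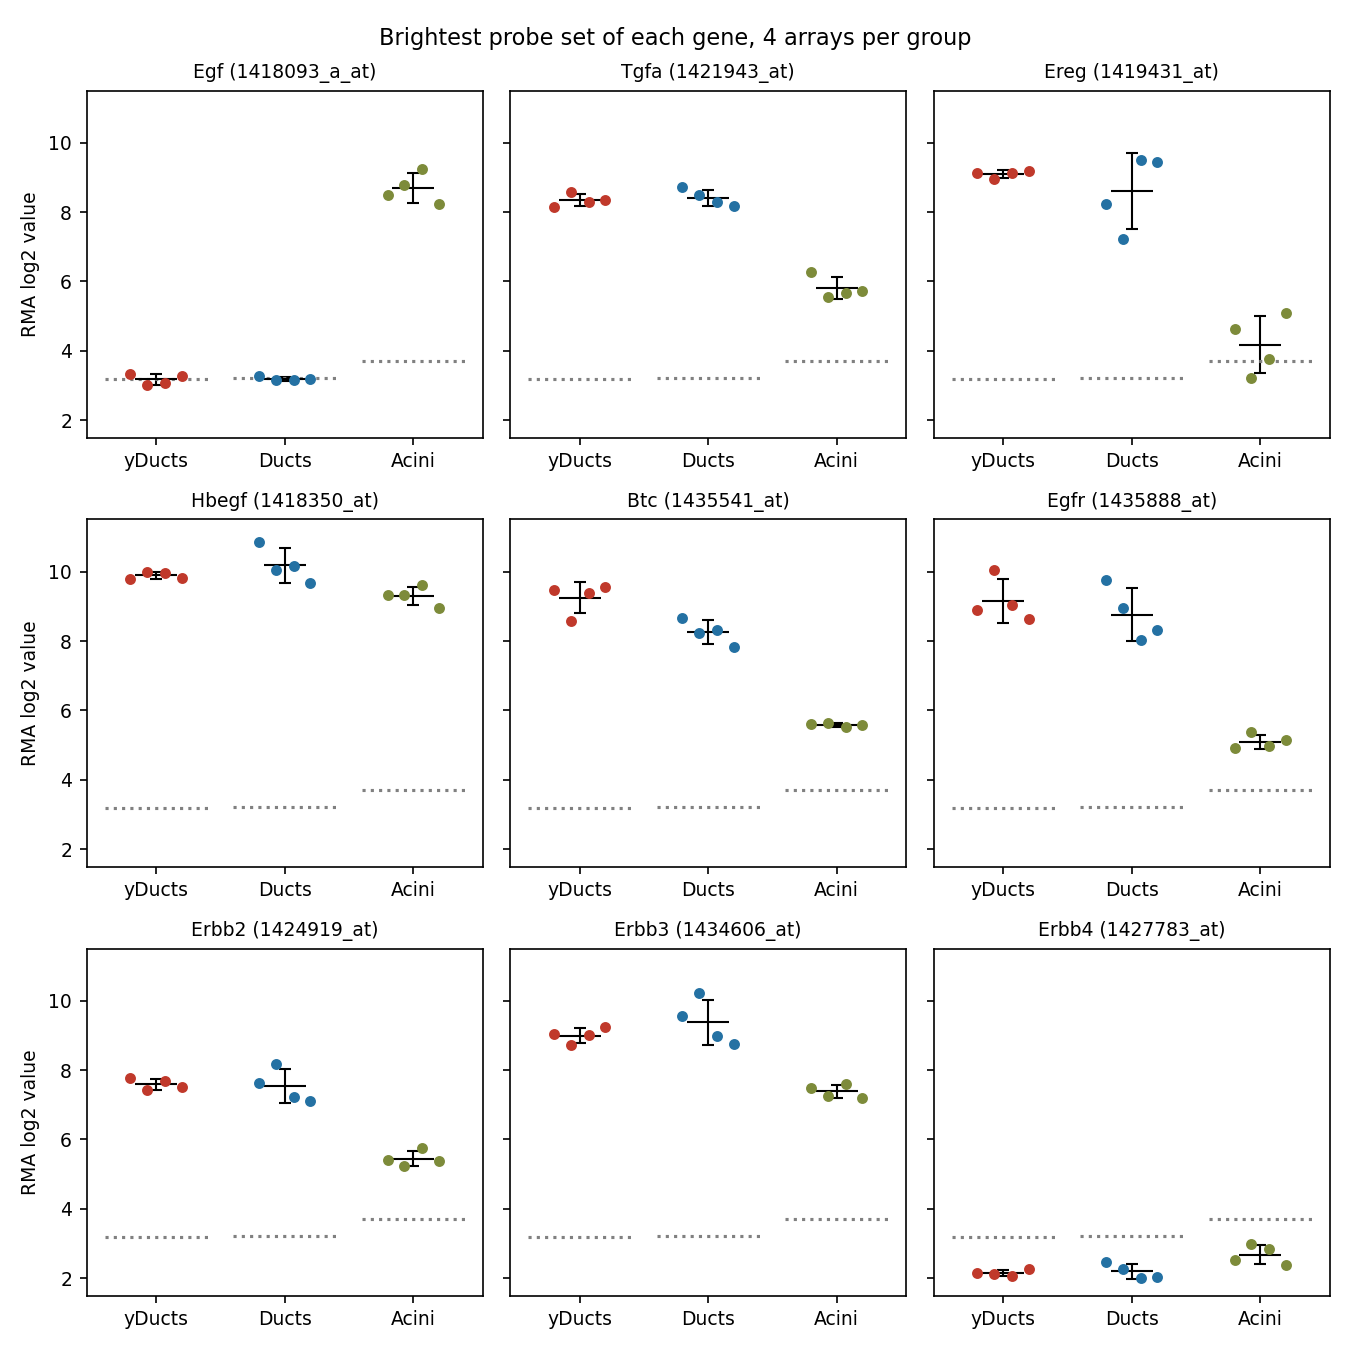
RMA log2 values of the brightest probe set of each gene, with 1 point per array (A to D from left to right), the mean as a bar and the SD as whiskers (n = 4 per group). Dotted lines are the mean 30th percentile of each group's arrays. Egf is at that line in yDucts and Ducts and between 8.23 and 9.24 in Acini, Erbb4 is below it everywhere, and the other genes have higher means in both organoid groups, a direction that for Hbegf turns under other scalings.

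Among the ligands, Egf, the founding ligand of the family, had the widest gap. Its values were 3.34, 3.01, 3.07 and 3.29 in yDucts, 3.29, 3.15, 3.15 and 3.18 in Ducts, and 8.5, 8.77, 9.24 and 8.23 in Acini (probe set 1418093_a_at). The organoid arrays lay at about the 30th percentile of their arrays, more than 4 log2 units under the lowest of the Acini, and no organoid array overlapped an Acini array. Egf was lower in yDucts by a log2 difference of -5.51 ± 0.19 (SE), which is at least 43.3-fold when values below the percentile are raised to it (limma, adjusted p = 8.16e-11). In Ducts the log2 difference was -5.49 ± 0.19, or at least 43.9-fold lower (adjusted p = 8.1e-11).

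Marker genes of several other cell types were lower along with Egf. All 6 endocrine markers were lower in both organoid groups, and the list's mean was 3.43 to 3.52 in yDucts, 3.43 to 3.48 in Ducts and 7.45 to 7.90 in Acini. The glucagon gene Gcg averaged 2.56 in yDucts, 2.63 in Ducts and 8.37 in Acini. All 7 stromal markers were also lower, with list means of 3.50 to 3.54 in yDucts, 3.41 to 3.62 in Ducts and 7.01 to 7.53 in Acini, as were all 6 endothelial markers, with 3.80 to 3.93 in yDucts, 3.80 to 4.02 in Ducts and 6.52 to 7.20 in Acini. Of the 5 tested immune markers 4 were lower in each organoid group, while Cd68, a macrophage marker, was higher in yDucts (log2 difference 1.27, adjusted p = 0.0188) and in Ducts (1.41, adjusted p = 0.0106). The part of these cells in the Egf signal of the Acini was not tested. In bulk RNA, fewer cells of a type and less RNA per cell cannot be told apart.

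Tgfa, which encodes TGF-alpha, an Egfr ligand, read 8.15, 8.58, 8.29 and 8.35 in yDucts, 8.71, 8.48, 8.28 and 8.17 in Ducts, and 6.26, 5.56, 5.66 and 5.73 in Acini on its brightest probe set (1421943_at). Every organoid array was above every Acini array, and the organoid groups overlapped. Tgfa was 5.82-fold higher in yDucts than in Acini (log2 difference 2.54 ± 0.19 SE, limma adjusted p = 8.53e-08) and 6.09-fold higher in Ducts (2.61 ± 0.19, adjusted p = 7.03e-08). Its other probe sets went the other way or did not pass. Probe set 1421942_s_at had means of 4.88 ± 0.27 in yDucts, 4.93 ± 0.09 in Ducts and 6.63 ± 0.27 in Acini (SD, n = 4 each), and was called lower in yDucts by a log2 difference of -1.75 (adjusted p = 1.28e-06) and in Ducts by -1.70 (adjusted p = 1.73e-06). Its suffix marks probes that can match transcripts of more than 1 gene. Probe set 1450421_at differed by -0.46 (adjusted p = 0.0933) and -0.41 (adjusted p = 0.127), and was called only without Acini D, at -0.69 (adjusted p = 0.00586) and -0.64 (adjusted p = 0.00866), or with array weights (adjusted p = 0.0271 and 0.0367). All 3 were designed from 1 target sequence, so the Tgfa result rests on which of them is read.

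Ereg, the gene of epiregulin, a ligand of Egfr and Erbb4, was well above Acini in both organoid groups. It read 9.13, 8.94, 9.13 and 9.18 in yDucts, 8.23, 7.22, 9.5 and 9.44 in Ducts, and 4.63, 3.23, 3.78 and 5.08 in Acini (1419431_at). yDucts lay close together, while Ducts split into 2 arrays (A and B) below all yDucts and 2 (C and D) above all of them. Ereg was 30.2-fold higher in yDucts than in Acini (log2 difference 4.92 ± 0.48 SE, limma adjusted p = 1.07e-06) and 21.4-fold higher in Ducts (4.42 ± 0.48, adjusted p = 2.9e-06).

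Hbegf, which encodes heparin-binding EGF, changed little beside the other ligands. It read 9.79, 10, 9.97 and 9.82 in yDucts, 10.85, 10.05, 10.15 and 9.66 in Ducts, and 9.32, 9.32, 9.60 and 8.96 in Acini (1418350_at). The lowest organoid arrays lay just above the highest of the Acini. The log2 difference of this probe set was 0.60 ± 0.22 (SE) in yDucts (limma adjusted p = 0.0291) and 0.88 ± 0.22 in Ducts (adjusted p = 0.00333), and of the second probe set (1418349_at) 0.81 in yDucts (adjusted p = 0.00442) and 1.06 in Ducts (adjusted p = 0.000676). The call of 1418350_at in yDucts was lost without Acini D (adjusted p = 0.0841), without yDucts B (0.0659) and without yDucts C (0.0645). Under quantile normalization the 2 probe sets differed by -0.23 and -0.07 in yDucts and by 0.08 and 0.17 in Ducts, and under cyclic loess by -0.51 and -0.31 in yDucts and -0.23 and -0.06 in Ducts, none of them called. These scalings also moved the median difference of all probe sets in yDucts, which was 0.13 as deposited, -0.01 after quantile normalization, 0.00 after cyclic loess and 0.35 after median centring. The direction of Hbegf against Acini is therefore not settled by these arrays.

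Btc, the gene of betacellulin, a ligand of Egfr and Erbb4, read 9.48, 8.59, 9.37 and 9.57 in yDucts, 8.66, 8.22, 8.33 and 7.82 in Ducts, and 5.61, 5.63, 5.51 and 5.57 in Acini (1435541_at). On its other probe set (1421161_at) it read 7.51, 6.99, 7.41 and 7.52 in yDucts, 6.49, 6.23, 6.51 and 6.27 in Ducts, and 2.84, 3.03, 2.62 and 3.13 in Acini. On both, every organoid array was above every Acini array. The first was 12.8-fold higher in yDucts than in Acini (log2 difference 3.67 ± 0.22 SE, limma adjusted p = 1.71e-08) and 6.40-fold higher in Ducts (2.68 ± 0.22, adjusted p = 2.87e-07). The second lay below the 30th percentile on all Acini arrays, and was at least 12.5-fold higher in yDucts (adjusted p = 1.7e-10) and at least 6.30-fold higher in Ducts (adjusted p = 2.23e-09).

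Btc lies on mouse chromosome 5 beside Areg, and Ereg and Epgn follow on the other side of Areg, so that these ligand genes form an unbroken run of coding genes in the RefSeq annotation. Epgn, the gene of epigen, an Egfr ligand outside the list of members, did not share the direction of Ereg and Btc. It averaged 3.56 in yDucts, 3.42 in Ducts and 4.28 in Acini, and was called lower in yDucts (log2 difference -0.72, limma adjusted p = 0.00877) and in Ducts (-0.86, adjusted p = 0.00292). These calls were lost under quantile normalization (adjusted p = 0.244 in yDucts and 0.102 in Ducts) and under cyclic loess (0.569 in yDucts and 0.233 in Ducts).

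**Figure D2:**
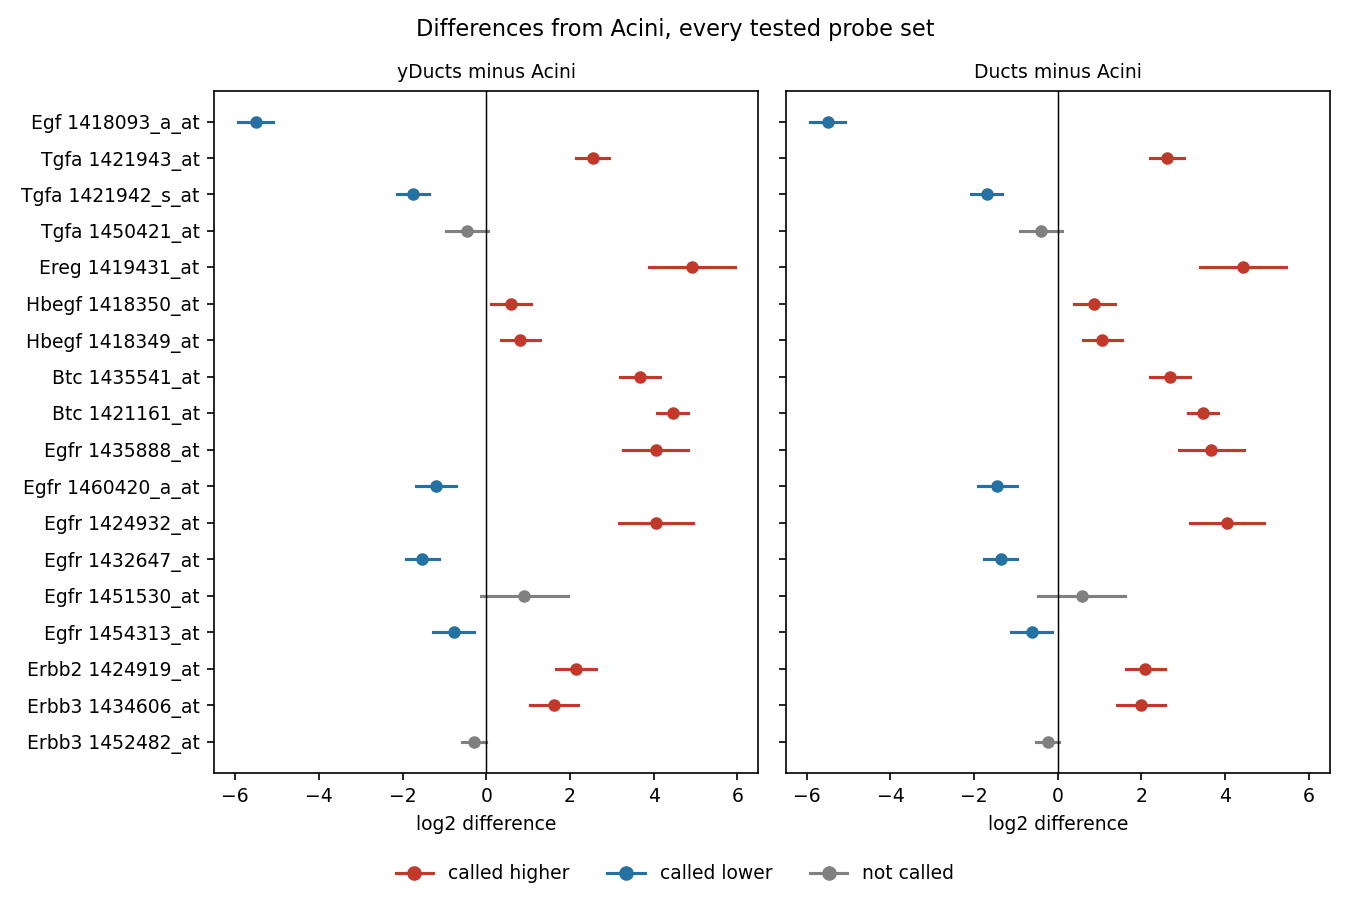
Log2 differences of every tested member probe set in yDucts minus Acini (left) and Ducts minus Acini (right), with 95% intervals from the limma fit, colored by call. Both comparisons use the same Acini arrays. Egf stands alone at about -5.5, and Tgfa and Egfr have probe sets called in both directions. The Hbegf calls are those of the values as deposited, and their direction turns in yDucts under quantile normalization and in both groups under cyclic loess.

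Egfr, the receptor of most ligands above, was covered by 7 probe sets that did not move together. On the brightest (1435888_at) it read 8.88, 10.05, 9.05 and 8.62 in yDucts, 9.76, 8.96, 8.02 and 8.31 in Ducts, and 4.91, 5.37, 4.97 and 5.14 in Acini. All organoid arrays were more than 2 log2 units above the Acini, with yDucts B and Ducts A the highest of their groups. Egfr was 16.6-fold higher in yDucts than in Acini on this probe set (log2 difference 4.05 ± 0.36 SE, limma adjusted p = 4.99e-07) and 12.7-fold higher in Ducts (3.67 ± 0.36, adjusted p = 1.26e-06).

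A second Egfr probe set (1424932_at) gave a like answer, with means of 7.62 ± 0.68 in yDucts, 7.61 ± 0.50 in Ducts and 3.56 ± 0.80 in Acini (SD, n = 4 each). Only 1 of the Acini arrays passed its 30th percentile on it, and it was at least 12.8-fold higher in yDucts (adjusted p = 1.5e-06) and at least 12.6-fold higher in Ducts (adjusted p = 1.61e-06). Probe set 1451530_at, designed from the same sequence, read 5, 6.57, 5.19 and 4.91 in yDucts, 5.43, 4.77, 4.96 and 5.14 in Ducts, and 3.97, 3.94, 6.19 and 3.93 in Acini. Apart from Acini C, the Acini were below all organoid arrays. The differences were 0.91 in yDucts (adjusted p = 0.107) and 0.57 in Ducts (adjusted p = 0.304), and without Acini C they were 1.47 (adjusted p = 0.00217) and 1.13 (adjusted p = 0.0107).

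The other tested Egfr probe sets were lower in the organoids. Probe set 1460420_a_at read 6.81, 7.79, 6.98 and 6.81 in yDucts, 7.12, 7.07, 6.56 and 6.66 in Ducts, and 8.21, 8.29, 8.31 and 8.37 in Acini, without overlap. Its log2 difference was -1.20 ± 0.22 (SE) in yDucts (adjusted p = 0.000278) and -1.44 ± 0.22 in Ducts (adjusted p = 5.85e-05). Its suffix marks probes shared by alternative transcripts of 1 gene. Probe sets 1432647_at and 1454313_at, which come from another single target sequence, were also called lower. The first differed by -1.53 in yDucts (adjusted p = 8.02e-06) and -1.37 in Ducts (adjusted p = 2.18e-05), and the second by -0.78 in yDucts (adjusted p = 0.00774) and -0.62 in Ducts (adjusted p = 0.0254). The Ducts call of 1454313_at was lost without Acini D (-0.37, adjusted p = 0.0544), Ducts A (-0.59, 0.0549) or Ducts B (-0.58, 0.0547), and under quantile normalization, cyclic loess or median centring (0.185, 0.463 and 0.126), and its yDucts call was lost under quantile normalization (0.103) and cyclic loess (0.213).

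The seventh, 1457563_at, averaged 2.81 in yDucts, 3.04 in Ducts and 3.23 in Acini, under the 30th percentile in each group, and was not tested. In all, 2 Egfr probe sets were called higher, 3 lower and 1 not called against Acini in each organoid group. Which transcripts or transcript ends each probe set reads was not resolved, and the part of the 3′ to 5′ differences of the Acini arrays in these disagreements was not tested.

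**Figure D3:**
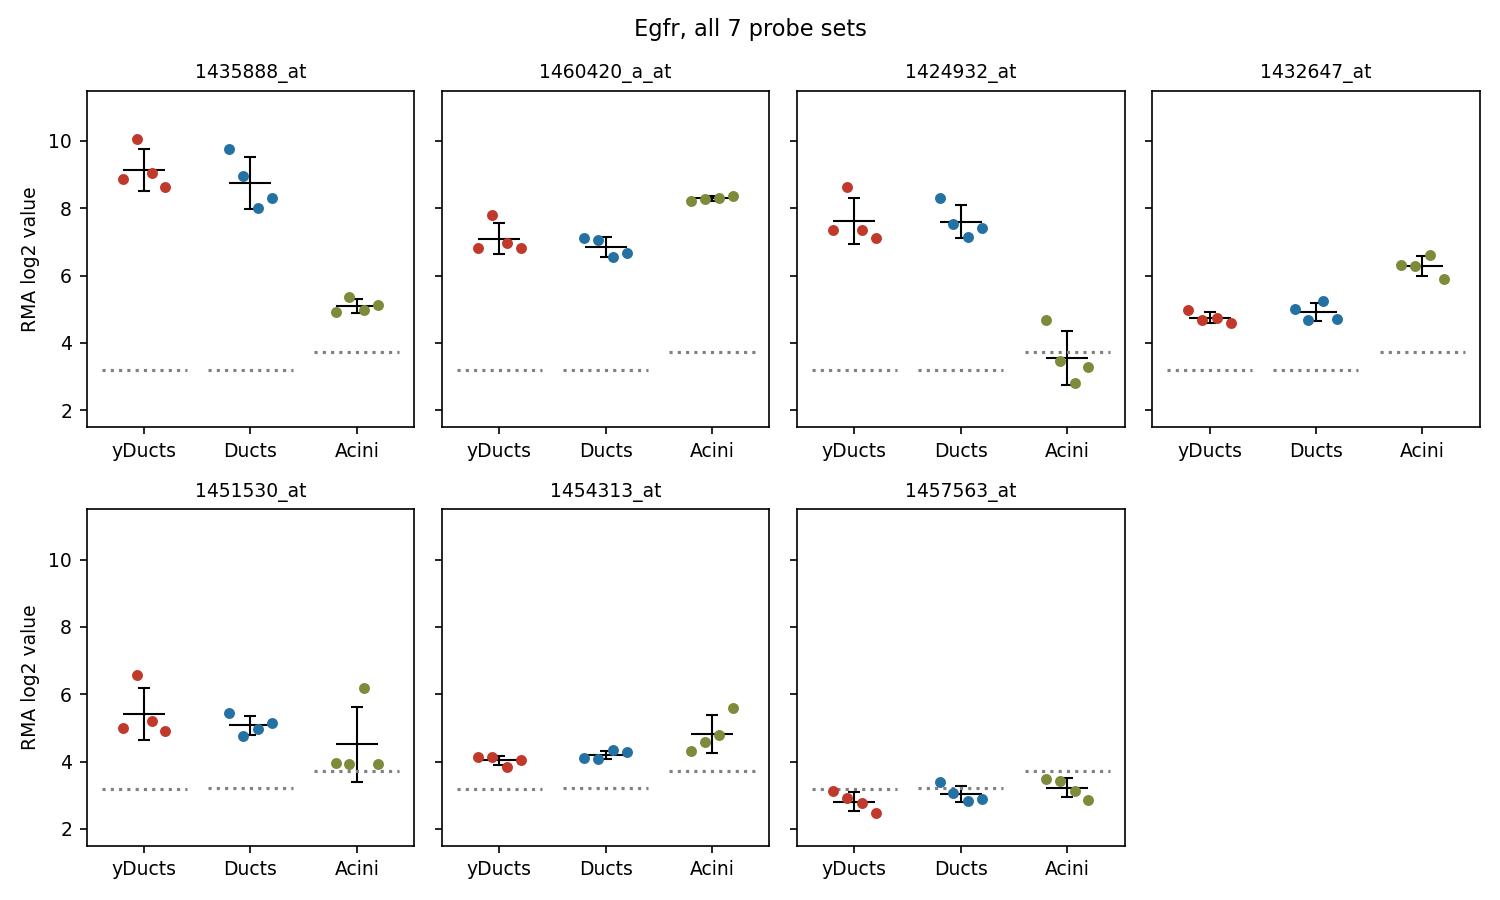
RMA log2 values of the 7 Egfr probe sets, 1 point per array (A to D from left to right), with means, SD whiskers (n = 4 per group) and the mean 30th percentile as a dotted line. In 1435888_at and 1424932_at the organoids are above the Acini, in 1460420_a_at, 1432647_at and 1454313_at their means are below, and single high arrays (yDucts B and Acini C) stand out in 1451530_at.

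Erbb2, the receptor without a ligand of its own, read 7.76, 7.41, 7.67 and 7.52 in yDucts, 7.64, 8.17, 7.23 and 7.10 in Ducts, and 5.41, 5.23, 5.75 and 5.38 in Acini (1424919_at). Both organoid groups were above the Acini on all arrays and overlapped each other. Erbb2 was 4.43-fold higher in yDucts than in Acini (log2 difference 2.15 ± 0.22 SE, limma adjusted p = 1.63e-06) and 4.27-fold higher in Ducts (2.09 ± 0.22, adjusted p = 2.14e-06). Its direction and call against Acini held under every alternative run.

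Erbb3, the neuregulin receptor that signals through its partners, read 9.03, 8.71, 9 and 9.23 in yDucts, 9.57, 10.21, 8.99 and 8.76 in Ducts, and 7.49, 7.24, 7.61 and 7.20 in Acini (1434606_at). Ducts A and B were the highest arrays, and no organoid array overlapped the Acini. Erbb3 was 3.05-fold higher in yDucts than in Acini (log2 difference 1.61 ± 0.27 SE, limma adjusted p = 0.000122) and 3.99-fold higher in Ducts (1.998 ± 0.27, adjusted p = 1.86e-05). Under cyclic loess the yDucts difference was 0.49 and no longer called (adjusted p = 0.142). Its second probe set (1452482_at) lay close to the 30th percentile, at means of 3.44 in yDucts, 3.50 in Ducts and 3.75 in Acini, and did not pass (adjusted p = 0.0543 in yDucts and 0.112 in Ducts).

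Erbb4, the second neuregulin receptor and also a receptor of betacellulin and epiregulin, read 2.16, 2.12, 2.08 and 2.28 in yDucts, 2.47, 2.27, 2 and 2.05 in Ducts, and 2.53, 2.98, 2.83 and 2.37 in Acini (1427783_at). All 12 values were below the 30th percentile of their array, and the probe set was not tested. A transcript that this probe set does not read would not be seen.

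yDucts and Ducts differed in 1 member, Btc. Among the 18 tested probe sets, 2 were called higher in yDucts, none was called lower (limma, and none at an unadjusted p under 0.05) and 16 were not called, beside 1.57% called higher and 0.757% called lower among all probe sets. By brightest probe set 1 of 8 genes was called higher, beside 2.01% of genes called higher and 0.881% called lower. The median difference was -0.03 over the tested member probe sets and -0.02 over all.

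Both called probe sets were those of Btc. On 1421161_at the lowest yDucts array (6.99) was above the highest Ducts array (6.51), and the log2 difference was 0.98 ± 0.17 (SE), or 1.98-fold (limma adjusted p = 0.00729). On 1435541_at the groups overlapped, since yDucts B (8.59) lay under Ducts A (8.66), and the log2 difference was 0.995 ± 0.22, or 1.99-fold (adjusted p = 0.0345). The call of 1435541_at was lost without any 1 of yDucts A (adjusted p = 0.137), yDucts C (0.118), yDucts D (0.125), Ducts C (0.0881) or Ducts D (0.117), and its difference then stayed between 0.85 and 1.02. It was also lost under quantile normalization (adjusted p = 0.0613) and when only yDucts and Ducts were fitted (0.0723), and with the replicate letter as a block (0.0577). The call of 1421161_at held without any single array, and was lost at the margin without Ducts C and D together (0.998, adjusted p = 0.0532), where 1435541_at gave 0.81 (adjusted p = 0.26). The Btc values themselves did not set Ducts A and B apart from Ducts C and D on 1421161_at.

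For the other tested members except Egf, the intervals bound what these arrays could have missed. The Egf means of 3.18 in yDucts and 3.19 in Ducts lay just below the mean filter percentile of their arrays (3.195 and 3.21). The 95% interval of yDucts minus Ducts for Egf, from -0.43 to 0.40, thus describes signals at that level. It does not bound a difference in Egf transcript. On the brightest probe set of each gene, the 95% interval of yDucts minus Ducts ran from -0.47 to 0.33 for Tgfa. For Hbegf it ran from -0.77 to 0.20, and for Erbb2 from -0.42 to 0.53. It was wider for Ereg, from -0.53 to 1.53, for Egfr, from -0.39 to 1.17, and for Erbb3, from -0.96 to 0.18. The Ereg difference of 0.50 (adjusted p = 0.807) rested on Ducts A and B, and without them it was -0.38 (adjusted p = 0.701). The Erbb3 difference of -0.39 (adjusted p = 0.638) was 0.12 without Ducts A and B (adjusted p = 0.851). With array weights, which give the arrays unequal weight by their fit, Egfr (0.71, adjusted p = 0.0452) and Erbb2 (0.35, adjusted p = 0.0476) were also called higher in yDucts, in a fit that called 5482 of all 33436 probe sets higher and 6272 lower.

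**Figure D4:**
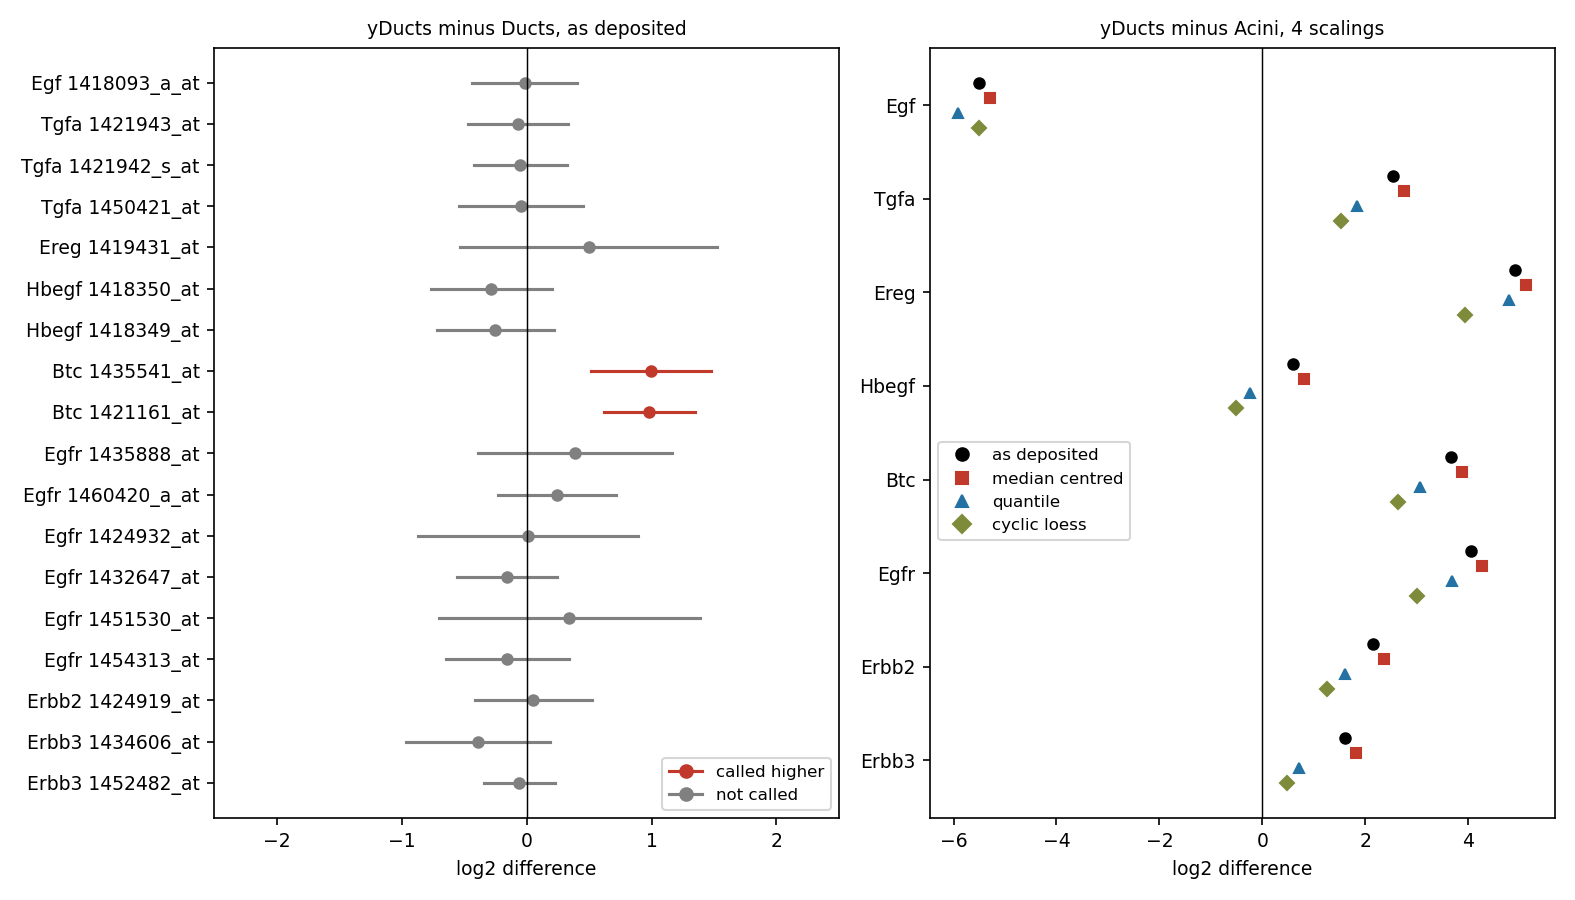
Left, log2 differences of yDucts minus Ducts with 95% intervals for the tested member probe sets, where only the 2 Btc probe sets are called. Right, log2 differences of yDucts minus Acini for the brightest probe set of each gene under 4 scalings, where Hbegf lies above 0 as deposited and after median centring and below 0 after quantile normalization and cyclic loess, and the other genes keep their sign.

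Downstream of the receptors, many genes of the pathway were higher in the organoids, and so were many genes at large. Of the 12 receptor adaptors tested, 9 were called higher and 1 lower in each organoid group against Acini, with a median difference of 1.46 in yDucts and 1.13 in Ducts, beside a median of 0.24 in yDucts and 0.20 in Ducts over all genes. Of all genes, 43.4% were called higher and 32.3% lower in yDucts, and 42.4% higher and 32.9% lower in Ducts, and the counts of each pathway list against Acini stand beside these shares. Grb7, an adaptor of Erbb2, averaged 8.78 in yDucts, 8.99 in Ducts and 6.05 in Acini, and was 6.59-fold and 7.67-fold higher. Sos1, which loads RAS with GTP, averaged 8.71 in yDucts, 8.72 in Ducts and 6.20 in Acini. Crk, another adaptor, averaged 10.26 in yDucts, 10.54 in Ducts and 8.09 in Acini. Gab1, a docking protein that links receptors to PI3K, was the one called lower, at -0.61 in yDucts (adjusted p = 0.0053) and -0.53 in Ducts (adjusted p = 0.0119). Under quantile normalization or cyclic loess 3 adaptors were called lower in each group and 5 higher in Ducts. After median centring none was called lower in either group, so the Gab1 calls were lost.

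Of the 7 tested genes of the RAS-ERK cascade, 5 were called higher and none lower in each organoid group (limma, and none lower at an unadjusted p under 0.05). Map2k1, the kinase MEK1, averaged 9.74 in yDucts, 9.85 in Ducts and 7.26 in Acini, or 5.59-fold and 6-fold higher. Nras, a RAS protein, averaged 8.92 in yDucts, 9.37 in Ducts and 7.21 in Acini, and Rasa1, a RAS-GTPase activator that shuts RAS off, averaged 8.55 in yDucts, 8.81 in Ducts and 7.05 in Acini. Under quantile normalization the counts were 2 higher and 1 lower in yDucts and 3 higher and 1 lower in Ducts, the same as under cyclic loess. The Rasa1 call in yDucts was then lost (adjusted p = 0.0512 under quantile normalization and 0.149 under cyclic loess).

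In the PI3K-AKT branch, 6 of the 10 tested genes were called higher and 2 lower in yDucts, and 5 higher and 2 lower in Ducts, not far from the shares of all genes (43.4% higher and 32.3% lower in yDucts, 42.4% and 32.9% in Ducts). Rictor, a subunit of the mTORC2 complex, averaged 8.59 in yDucts, 8.73 in Ducts and 5.39 in Acini, or 9.14-fold and 10.09-fold higher. Pdpk1, the kinase that activates AKT, averaged 9.31 in yDucts, 9.26 in Ducts and 7.35 in Acini, and Pik3cb, a catalytic PI3K subunit, averaged 5.46 in yDucts, 6.07 in Ducts and 4.32 in Acini. The genes called lower were the kinases Akt1 (-0.50 in yDucts and -0.34 in Ducts) and Akt2 (-0.90 in yDucts and -1.09 in Ducts). Under quantile normalization and under cyclic loess 3 genes of the branch were called higher in each organoid group, and 4 were called lower in Ducts under cyclic loess. After median centring 1 was called lower in each group, so that a call of Akt1 or Akt2 was lost.

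ERK response genes, which are induced when ERK is active and mostly restrain the pathway, had the highest median of the lists. This median depends on how the lists were drawn, which was done with earlier results of these data known. The immediate early genes, which also respond to growth factors, were listed apart and were mostly lower, as given below. Of 14 genes, 9 were called higher and 2 lower in each organoid group, with a median difference of 2.43 in both, beside 43.4% of all genes called higher in yDucts and 42.4% in Ducts. Dusp4, an ERK phosphatase, averaged 8.70 in yDucts, 9.89 in Ducts and 3.92 in Acini, or 27.4-fold and 62.4-fold higher. Dusp6, a second ERK phosphatase, averaged 11.31 in yDucts, 11.03 in Ducts and 6.83 in Acini, or 22.4-fold and 18.3-fold higher. Spry2, an inhibitor of receptor signalling, averaged 7.91 in yDucts, 8.24 in Ducts and 4.13 in Acini, or 13.7-fold and 17.3-fold higher. Etv5, an ERK-responsive transcription factor, averaged 8.10 in yDucts, 7.10 in Ducts and 3.46 in Acini, at least 20.9-fold and at least 10.4-fold higher. The 2 called lower were Spry4 (-0.48 in yDucts and -0.87 in Ducts) and Dusp5 (-1.22 in yDucts and -0.71 in Ducts), so relatives within the sprouty and phosphatase families went opposite ways. The count called higher was 8 or 9 in each group under every other scaling, and 4 were called lower in each group under quantile normalization, 3 in yDucts and 4 in Ducts under cyclic loess, and 1 in yDucts and 2 in Ducts after median centring. The medium of the organoids held EGF and FGF10, and its part in these levels was not tested.

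Genes of receptor inhibition and turnover were also mostly called higher in the values as deposited. In yDucts 11 of 12 were called higher and 1 lower, and in Ducts 10 were higher and 1 lower, beside 43.4% of all genes called higher in yDucts and 42.4% in Ducts. Socs4, which is known to promote Egfr degradation, averaged 9.11 in yDucts, 8.86 in Ducts and 5.54 in Acini, or 11.9-fold and 10-fold higher. Cbl, the ubiquitin ligase of Egfr, averaged 7.84 in yDucts, 7.51 in Ducts and 4.75 in Acini, and Lrig3, of a family of receptor regulators, averaged 6.68 in yDucts, 6.67 in Ducts and 3.77 in Acini. The gene called lower was Errfi1, the feedback inhibitor MIG6, at -1.78 in yDucts (adjusted p = 0.000609) and -1.39 in Ducts (adjusted p = 0.00355). Under quantile normalization 6 genes were called higher in yDucts and 5 in Ducts, and under cyclic loess 6 in yDucts and 4 in Ducts.

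Of the 11 genes of ligand shedding and maturation, 6 were called higher and 1 lower in yDucts, and 7 higher and 1 lower in Ducts, where 43.4% of all genes were higher in yDucts and 42.4% in Ducts. Adam17, the main sheddase of TGF-alpha and HB-EGF, averaged 8.41 in yDucts, 8.28 in Ducts and 5.38 in Acini, or 8.18-fold and 7.48-fold higher. Adam9 averaged 10.84 in yDucts, 10.69 in Ducts and 7.57 in Acini. Timp3, an inhibitor of Adam17, was higher as well, at means of 11.11 in yDucts, 11.48 in Ducts and 8.17 in Acini. Cd9, a tetraspanin that binds membrane HB-EGF, averaged 12.31 in yDucts, 11.80 in Ducts and 7.70 in Acini, or 24.5-fold and 17.1-fold higher. Adam19, another family protease, was the one called lower, at -1.39 in yDucts and -1.51 in Ducts. Under quantile normalization and under cyclic loess 4 genes were called lower in yDucts and 3 in Ducts.

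The neuregulins, ligands of Erbb3 and Erbb4, were low or changed little. Of the 4 tested genes among the neuregulins and Epgn, none was called higher (limma, and none at an unadjusted p under 0.05) and 2 were called lower in yDucts, and 1 was called higher and 3 lower in Ducts. Under each of the other scalings 1 gene was called higher in yDucts. Nrg1 averaged 3.97 in yDucts, 4.54 in Ducts and 3.90 in Acini, and its call in Ducts (0.64, adjusted p = 0.0456) was lost without any single array but Ducts B or Acini A, and with the replicate letter as a block (adjusted p = 0.0734). Nrg2 was lower by a log2 difference of -0.47 in yDucts (adjusted p = 0.0122), a call lost under each of the other scalings. In Ducts the log2 difference of Nrg2 was -0.57 (adjusted p = 0.00401), also called lower. Nrg4 averaged 4.89 in yDucts, 3.53 in Ducts and 4.32 in Acini, and was called lower in Ducts than in Acini (-0.79, adjusted p = 0.0169), but not without Acini C (-0.54, adjusted p = 0.0506) or Ducts C (-0.63, 0.0573), nor under any of the other scalings. Under cyclic loess none of these genes was called lower in either group.

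The immediate early genes, which respond within minutes to growth factors and to tissue handling alike, were mostly lower in the organoids. In yDucts 8 of 10 were called lower and in Ducts all 10, with medians of -2.20 in yDucts and -3.29 in Ducts, beside 32.3% of all genes called lower in yDucts and 32.9% in Ducts. Fosb averaged 2.89 in yDucts, 2.87 in Ducts and 9.76 in Acini, at least 94.3-fold and at least 93.2-fold lower. Atf3, a stress-induced factor, averaged 6.21 in yDucts, 7.72 in Ducts and 11.87 in Acini, Jun averaged 8.23 in yDucts, 7.31 in Ducts and 11.70 in Acini, and Zfp36, an RNA-binding feedback regulator, averaged 7.28 in yDucts, 7.03 in Ducts and 11.43 in Acini. The labels call the Acini freshly isolated, which the methods describe as a digestion of the tissue, and the part of handling in these levels, and in those of Errfi1 and Hbegf, was not tested.

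Between yDucts and Ducts few pathway genes were called. Nrg4 was 2.56-fold higher in yDucts (log2 difference 1.36 ± 0.27 SE, limma adjusted p = 0.0158), Socs5, a relative of Socs4, was 2.27-fold higher (1.18 ± 0.21, adjusted p = 0.00957), Etv5 was 2.01-fold higher (1.01 ± 0.20, adjusted p = 0.0158) and Egr1, an immediate early factor, was 3.80-fold higher (1.93 ± 0.45, adjusted p = 0.042). No other of the 80 tested genes of these 8 lists was called, and at an unadjusted p under 0.05 there were 12 higher and 9 lower. Of all genes, 2.01% were called higher and 0.881% lower. The Socs5 call held in every alternative run. Etv5 was not called without yDucts A (adjusted p = 0.0649), yDucts C (0.0579), yDucts D (0.0513), Ducts C (0.0637) or Ducts D (0.0588) or with the replicate letter as a block (0.0526), nor was Nrg4 without yDucts A (0.074), yDucts C (0.0644), Ducts C (0.0609) or Ducts D (0.0531). The Egr1 call was lost without any 1 of 10 of the 12 arrays (all but Ducts A and B), with adjusted p between 0.058 and 0.145. Under quantile normalization the calls of Nrg4 (adjusted p = 0.0873) and Egr1 (0.0632) were lost, and that of Egr1 also when only yDucts and Ducts were fitted (0.0972). Without Ducts C and D together the differences were 0.87 for Egr1 (adjusted p = 0.0961), 1.07 for Nrg4 (0.171) and 0.76 for Etv5 (0.188).

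**Figure D5:**
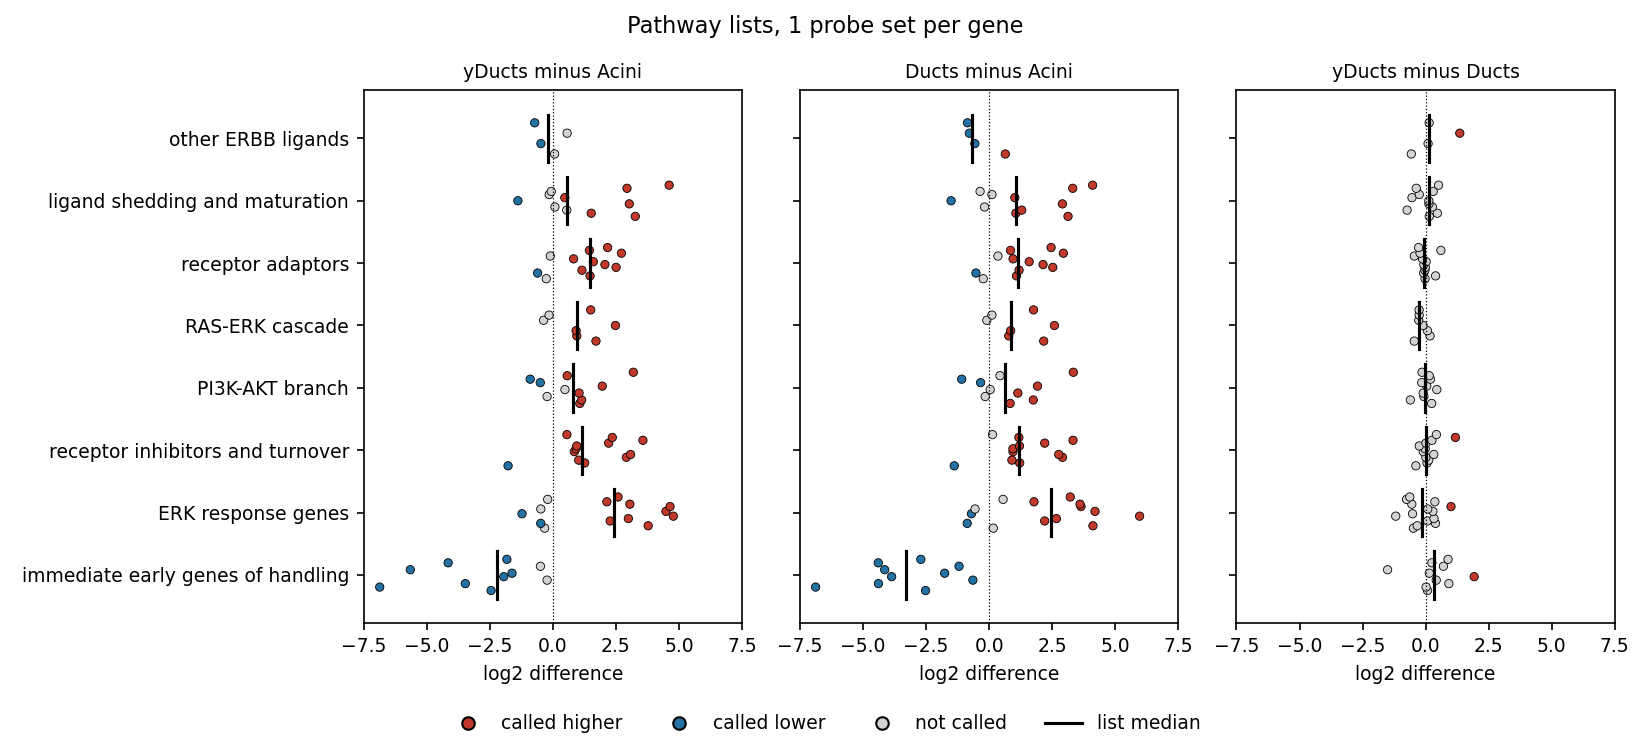
Log2 differences of the tested genes of 8 pathway lists (1 probe set per gene) in yDucts minus Acini, Ducts minus Acini and yDucts minus Ducts, colored by call, with the list median as a black bar. ERK response genes have a median of 2.43 in both comparisons with Acini and immediate early genes lie below 0, while 4 genes are called between yDucts and Ducts. Counts of several lists shift under quantile normalization and cyclic loess.

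The genes whose values followed the members most closely over the 12 arrays were set mainly by the gap between organoids and Acini. Egf was followed by Iapp, an islet hormone gene (Pearson r = 0.9986), Slc38a5 (0.9983) and Sostdc1 (0.9982). Btc was followed by Chchd5 (0.9927), Ccdc50 (0.9884) and Ss18 (0.9878), Ereg by Cenpt (0.984), Aggf1 (0.9835) and E2f6 (0.9833), and Tgfa by Arhgef18 (0.9964), Pdlim7 (0.9947) and Ubtd2 (0.9941). Among the receptors, Egfr was followed by Adgrl2 (0.9934), Erbb2 by Fzd1 (0.9956), a Wnt receptor, and Erbb3 by Myo1d (0.9882) and Krt18 (0.9837), a keratin of simple epithelia. Hbegf had no neighbour above 0.9303. These values describe arrays that fall into 3 groups and share their scaling.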

How the data were processed

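RNA of 12 samples (4 each of yDucts, Ducts and Acini) was labelled and hybridised to Affymetrix mouse arrays. The authors deposited log2 values made by RMA, per the submitters' processing notes, with no software version given in the sources used here. RMA corrects background, normalizes quantiles and summarises the probes of a set. The summarised values still differed between groups, with a mean array median of 4.375 in yDucts, 4.382 in Ducts and 4.592 in Acini. Whether all 12 arrays were normalized together was not tested. The values carry 2 decimals and no read depth, so the number of arrays limits the precision. Of 45101 rows, 64 controls were left out, and 34958 had 1 gene symbol in the platform table, 932 several and 9211 none. No gene was named from a probe set with several symbols.

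A group-means model over all 12 arrays was fitted with limma 3.58.1 in R 4.3.3 (9 residual and 4.187 prior degrees of freedom), on probe sets above the 30th percentile of their array on at least 4 arrays. This left 33436 probe sets and 14990 genes. A probe set was called at a Benjamini-Hochberg adjusted p under 0.05. The representative probe set of a gene was the one with the highest mean over the 12 arrays. Most of these were organoid arrays, so where probe sets of a gene disagree, the rule leans towards the one higher in organoids. Where a group's mean lay under the 30th percentile of its arrays, values were raised to it and the fold was given as a lower bound. No 2 arrays held identical values. The script was tested on simulated data.

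The text names all members with every probe set, up to 3 called genes with the largest difference per pathway list and comparison, the genes nearest in pattern and marker genes. Other list genes that are named (Gab1, Akt1, Akt2, Spry4, Dusp5, Errfi1 and Adam19) were chosen after their values were seen, as the ones called lower. Members and lists were chosen with earlier results of these data known. Alternatives were other scalings, filters, weights, variance models, sample sets, the replicate letter as a block, and leaving out arrays.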

Additional observations from a re-analysis of the deposited data

Results flagged for a closer look

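In 60 groups of 4 arrays examined, 1 array lay far from the other 3 in 3 cases, and chance alone gives about 1 in 20 such groups. The number found is about what that rate gives. All 3 are in Egfr, which has 7 of the 20 member probe sets, and the 2 probe sets concerned were designed from 1 target sequence. On probe set 1424932_at, yDucts B read 8.63, where the other yDucts read 7.13 to 7.36. On 1451530_at, yDucts B read 6.57, where the other yDucts read 4.91 to 5.19. On the same probe set Acini C read 6.19, where the other Acini read 3.93 to 3.97. yDucts B was also the highest of its group on the Egfr probe sets 1435888_at (10.05) and 1460420_a_at (7.79), without reaching the same limit. The calls of 1424932_at against Acini held without yDucts B, while those of 1451530_at appeared without Acini C, as given above.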

How the results depend on the processing

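Of the member values recomputed under other settings, 1190 kept their direction and side of the threshold, 26 lost a call, 9 gained one and 34 turned sign. For the list genes, only the up to 3 called genes with the largest difference per pathway list and comparison were recomputed singly. Of their values 1166 kept both and 55 lost a call. Gab1, Akt1, Akt2, Spry4, Dusp5, Errfi1 and Adam19 are not in these counts. The number of arrays and the spread of Ducts limit the comparison of yDucts with Ducts, and the cause of each change was not tested. Deviations of arrays with the same replica letter correlated at -0.3018 to 0.1117 between groups. The labels do not say whether a letter pairs arrays across groups, and these correlations cannot settle it. With the replicate block, 424 probe sets were higher and 190 lower in yDucts than in Ducts, 1 member probe set was higher, and 3 calls of single probe sets were lost (Btc, Etv5 and Nrg1, given above).

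Against Acini, Hbegf turned. Its difference in yDucts was -0.23 (1418350_at) and -0.0747 (1418349_at) after quantile normalization and -0.51 and -0.31 after cyclic loess, and in Ducts -0.23 and -0.0556 after cyclic loess. Erbb3 1452482_at, not called, turned to 0.21 (quantile) and 0.27 (cyclic loess) in yDucts and 0.25 and 0.31 in Ducts. In yDucts minus Ducts, some uncalled differences turned sign. Without Ducts A and B these were Egf 0.0125, Erbb3 1434606_at 0.12, Ereg -0.38, Hbegf 1418349_at 0.07 and Tgfa 1421943_at 0.12. Without Ducts C and D they were Egfr 1424932_at -0.31, Egfr 1435888_at -0.21 and Erbb2 -0.32. With array weights they were Egf 0.0251, Ereg -0.13 and Tgfa 1421943_at 0.0017. Leaving out 1 array gave -0.0692 to 0.0408 for Egf, -0.33 to 0.25 for Egfr 1424932_at, -0.0417 to 0.51 for Egfr 1451530_at, -0.09 to 0.27 for Erbb2, -0.12 to 0.0775 for Tgfa 1421942_s_at and -0.15 to 0.0325 for Tgfa 1421943_at.

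In probe-set counts against Acini, 1 probe set per gene gave 6533 higher and 4890 lower in yDucts and 6395 and 4960 in Ducts. Of members 1 was lower in each, in a fit that did not hold the Egfr and Tgfa probe sets called lower. Without a filter 18107 were lower in yDucts and 17637 in Ducts, and at the 50th percentile 5650 and 5634. The share of calls that were higher was 55.72% in yDucts and 56.2% in Ducts, 42.5% and 43.38% without a filter, and 69.38% and 69.43% at the 50th percentile. Of pathway list genes, 17 were lower in yDucts, against 26 after quantile normalization or cyclic loess, and 46 were higher in Ducts, against 29 after cyclic loess.

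Between yDucts and Ducts, 524 probe sets were higher and 253 lower, 322 and 148 with 1 per gene, 313 and 134 after quantile normalization, 5482 and 6272 with array weights, 2140 and 1878 without Ducts A and B, and 231 and 200 without Ducts C and D. Leaving out 1 array gave 235 (without yDucts A) to 888 (without Ducts B) higher and 99 (without yDucts A) to 619 (without Ducts B) lower. Of the 2 member probe sets called higher, 1 was called with only these groups fitted or after quantile normalization. Without Ducts C and D 0 were called, without 1 array 1 to 2, and with array weights 4. With 1 probe set per gene 1 was called, in a fit that did not hold the second Btc probe set. Of list genes, 4 were higher and 0 lower, with 21 and 18 under array weights, 12 and 8 without Ducts A and B, 1 and 1 without Ducts C and D, 2 higher after quantile normalization, 1 lower with only these groups fitted, and 1 to 6 higher and 0 to 1 lower without 1 array.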
